A study of Mus musculus with 20 samples.

Results

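Immediate early genes are transcribed within minutes of a stimulus, from factors already present in the cell and with no need for new protein. The set described here holds 10 of them, out of 21887 protein-coding genes in the RefSeq table: Fos, Fosb, Jun, Junb, Jund, Atf3, Egr1, Ier2, Myc and Dusp1. They were taken by name, and each was read through a gene window, its annotated span on build mm10 extended by 5 kb on both sides. All called H3K27ac regions that touched a window by at least 1 bp were summed in each library.

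H3K27ac, acetylation of lysine 27 of histone H3, marks active promoters and enhancers. It was profiled by ChIP-seq in hepatocytes taken from mouse liver by a perfusion in 2 steps. The young group held 5 libraries from C57BL/6N mice aged 5 months and the old group 5 libraries from C57BL/6J mice aged 23 months, so age and substrain cannot be told apart. All 10 chromatin preparations carried a human chromatin spike-in, whose reads were not analysed here, and the 10 input samples entered only through the tag columns of the region lists. Whether the 5 libraries of an age stem from 5 animals is not stated in the labels, so the p-values below speak only of spread among libraries, which may be technical. Every group was perfused, and no unperfused liver was part of the comparison, so acetylation present in the intact liver and acetylation gained during isolation cannot be told apart.

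Fos and Jun proteins pair through leucine zippers to form the transcription factor AP-1. Their genes, together with Egr1, are switched on by MAP kinase signals acting on factors such as SRF and CREB that already sit at the promoters. Dusp1 encodes a phosphatase that removes the activating phosphates from MAP kinases and so closes the loop. In liver these genes are known to respond within minutes to partial hepatectomy, to injury and to the enzymatic dissociation of the tissue.

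The promoters of 7 of the 10 genes were in the RefSeq promoter table (GRCm38.p6, the mm10 assembly). Below are the 200 bases before the start in that table for 5 of them, shown because they lie inside the acetylated regions of all 10 libraries and differ in the response elements they hold. Each is written 5′ to 3′ on the strand of its gene, and capitals mark the matches to the motifs searched.
Fos (chr12:85473690-85473889, plus strand): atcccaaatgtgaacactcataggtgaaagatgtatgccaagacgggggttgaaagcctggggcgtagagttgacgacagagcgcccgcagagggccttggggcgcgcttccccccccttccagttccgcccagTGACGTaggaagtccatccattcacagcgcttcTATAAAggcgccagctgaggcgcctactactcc
Jun (chr4:95052223-95052422, minus strand): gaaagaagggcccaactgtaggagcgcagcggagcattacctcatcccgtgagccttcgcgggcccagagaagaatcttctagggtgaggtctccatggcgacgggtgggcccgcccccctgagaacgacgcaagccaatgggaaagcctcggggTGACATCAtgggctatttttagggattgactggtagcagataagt
Atf3 (chr1:191183334-191183533, minus strand): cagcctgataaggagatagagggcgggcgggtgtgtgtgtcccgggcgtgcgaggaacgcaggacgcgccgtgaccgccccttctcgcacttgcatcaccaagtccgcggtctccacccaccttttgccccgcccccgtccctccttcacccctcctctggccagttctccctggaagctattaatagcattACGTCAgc
Dusp1 (chr17:26508473-26508672, minus strand): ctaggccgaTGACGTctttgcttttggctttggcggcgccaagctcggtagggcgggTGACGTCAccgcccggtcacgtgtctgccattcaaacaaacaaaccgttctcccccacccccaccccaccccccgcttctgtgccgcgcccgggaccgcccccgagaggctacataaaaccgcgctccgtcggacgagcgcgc
Fosb (chr7:19310046-19310245, minus strand): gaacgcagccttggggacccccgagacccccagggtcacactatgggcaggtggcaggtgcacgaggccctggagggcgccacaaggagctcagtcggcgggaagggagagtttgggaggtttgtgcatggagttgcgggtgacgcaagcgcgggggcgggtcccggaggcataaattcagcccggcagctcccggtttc
The motifs were searched on both strands. In Fos, TGACGT, the core of the cyclic AMP response element bound by CREB and ATF factors, stood at -66 to -61 from the start, and TATAAA, the TATA box, at -33 to -28. Jun held TGACATCA at -45 to -38, a variant of the AP-1 site TGANTCA that Jun and ATF proteins are known to bind. Atf3 held the response element core on the other strand, read here as ACGTCA, at -8 to -3. Dusp1 held the core at -191 to -186 and the full palindrome TGACGTCA, which contains the core, at -143 to -136. No motif searched was matched in the 200 bases of Fosb. Of all 32851 promoters in the table, 5.85% held TGACGT in the same 200 bases, 1.47% held TGACGTCA, 2.66% held TGACATCA and 9.96% held TATAAA. The AP-1 site TGANTCA was in 5.48% and the CArG box, the site of SRF, in 1.18%, and neither was matched in these windows of the 7 genes. A match is only a match of letters.

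The region lists held 21213 to 30195 regions per library, from 6295930 to 15544145 total tags, and every library was scaled to 10000000 tags. The approximate IP efficiency in the file headers was 34.63% to 48.23% in young libraries and 24.53% to 35.84% in old ones. All 10 hepatocyte markers had a region in every library, and their summed scaled tags were 8512 to 11714 in young and 4774 to 7936 in old libraries, with no overlap. Of the Kupffer cell markers 6 of 8 were at 0 in all libraries, among them Clec4f, Vsig4, Adgre1 and Marco, and the list summed to 722.4 to 1068 in young and 482.1 to 853.1 in old, nearly all of it in the window of Cd68. Of the 8 endothelial markers, Kdr and Cdh5 were at 0 in all libraries. Stab2 had a region in 10 libraries, at a mean of 255.5 scaled tags in young and 233.1 in old. Lyve1 and Tie1 had a region in 9 libraries, Egfl7 in 8, Pecam1 in 7 and Clec4g in 2. The endothelial list summed to 271.1 to 1048 in young and 168.4 to 566.7 in old. Of the other lists, 6 of 8 stellate markers (0 to 155.5 in young, 44.5 to 103.1 in old), 4 of 6 cholangiocyte markers (611.8 to 1318 and 483.7 to 860.3) and 4 of 8 lymphoid markers (605.2 to 1227 and 535.2 to 890.6) were at 0 in all libraries. The part of these cells in the results below was not tested. Fewer cells with a mark and less of the mark per cell cannot be told apart in such bulk libraries.

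The inputs of young replicates 1 and 3 stood apart in the regions of the 10 genes. There the input held 17.3 and 20.3 tags per kb per 10000000 tags, against 6.60 to 13.5 in the other 8 libraries. That was 1.93 and 1.96 times the mean over all regions of the same library, against 1.25 to 1.61 times in the others. The tags of the 10 genes were 8.005 and 7.46 times the input in those libraries, and 9.51 to 21.9 times in the others. The authors' scaled tags are not divided by the input, so the age differences that moved by over 1.5 times without both libraries are also given that way.

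All 10 genes had called acetylation in all 10 libraries, each through 1 main stretch that overlapped the gene. Their windows held 154 called regions, which merged across libraries into 18 separate stretches, of which 10 were called in every library and 3 in only 1 library. For the 7 genes with a known strand, a called region covered the 5′ end in 10 of 10 libraries. The regions rested on 47.5 to 1899 unscaled tags per gene and library, and the authors' fold over input of single regions ran from 4.04 to 72.3. The 72.3 belonged to a weak Fosb region in young replicate 3 with 26.6 scaled tags. The next highest was 38.98, at Jun in young replicate 5.

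**Figure D1:**
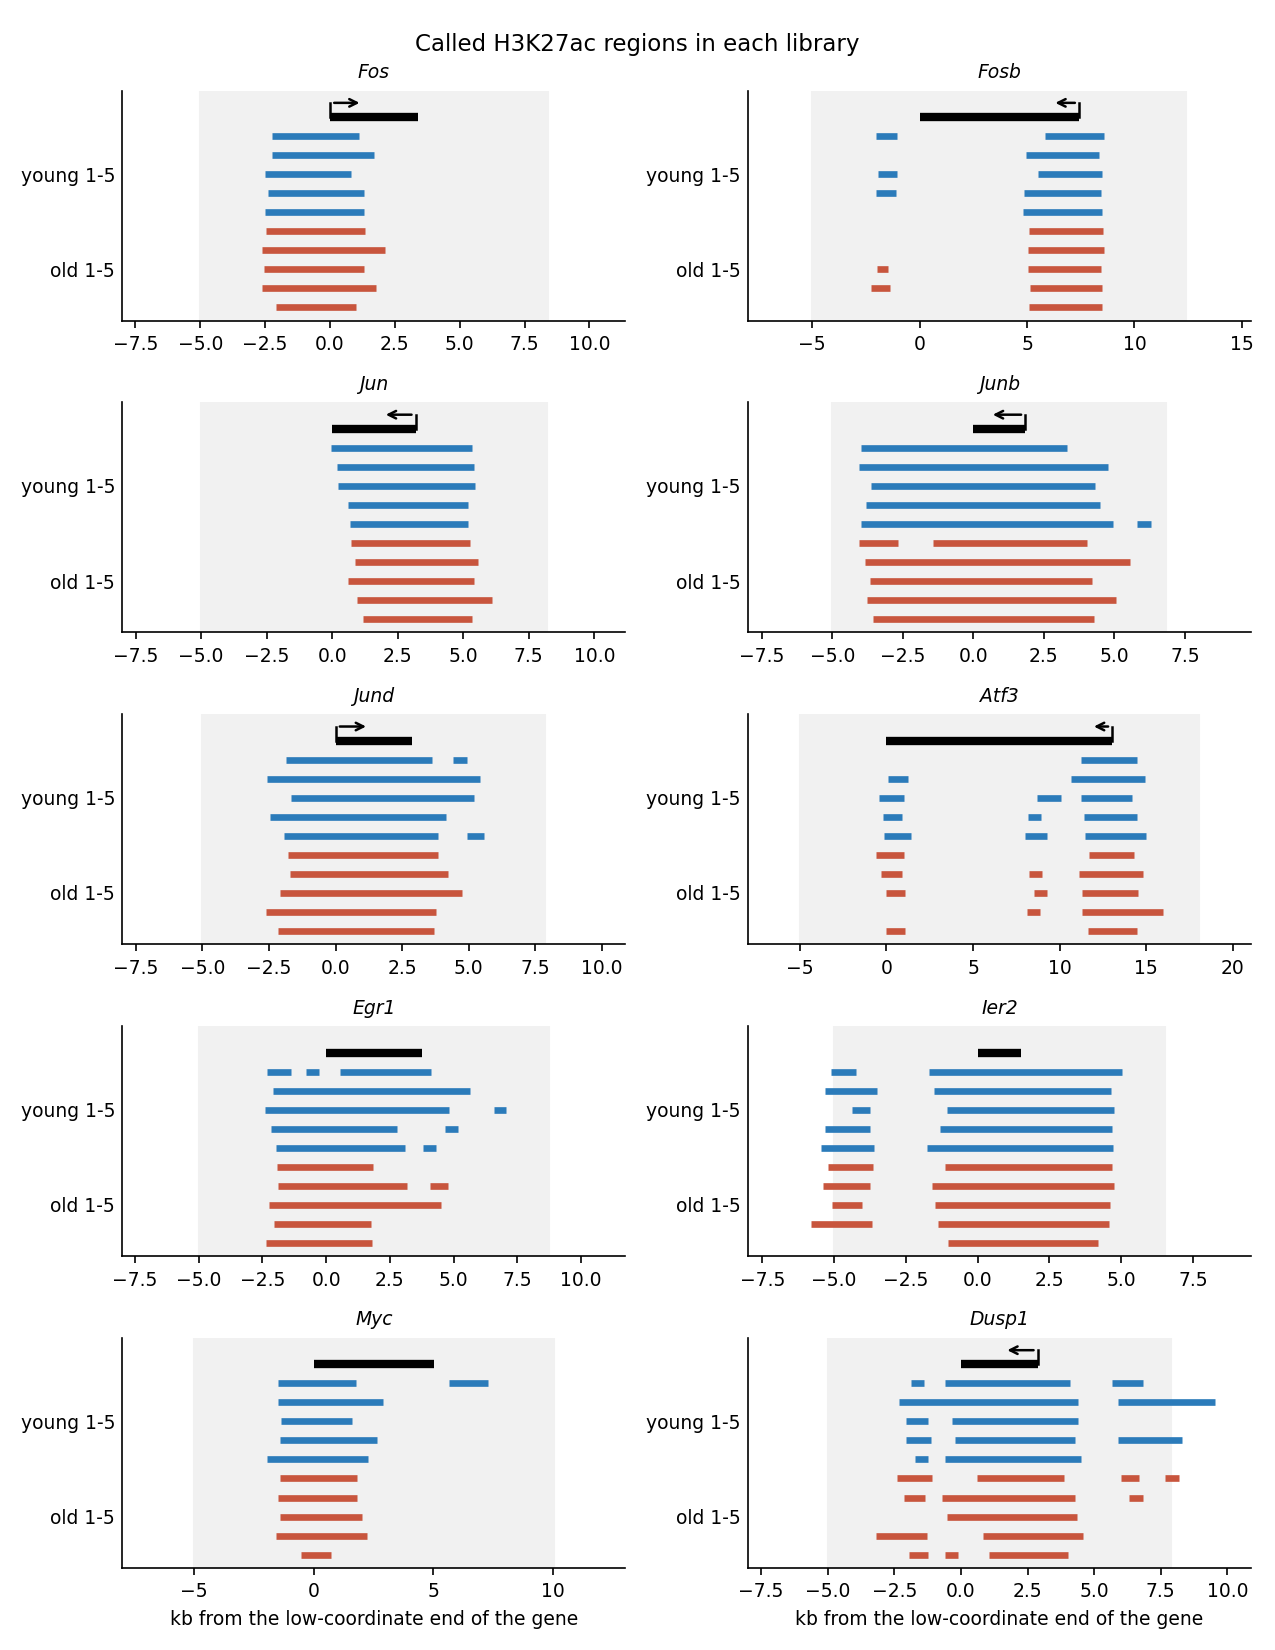
Called H3K27ac regions at each gene, one line per library (blue, young replicates 1 to 5; red, old replicates 1 to 5). The x axis is distance in kb from the low-coordinate end of the gene; the black bar is the gene, the arrow its start and direction where known, and the grey area the gene window. The main stretch is present in every library, while the smaller flanking stretches come and go.

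Fos, a leucine zipper protein that needs a Jun partner to bind DNA, lies on chromosome 12 at 85473890 to 85477274, plus strand. Its window held exactly 1 region in each library, and 2890 bp were covered in all 10, from -2070 to 820 bp of the start. Fosb, its close relative, lies on chromosome 7 at 19302696 to 19310118, minus strand, with 2506 bp covered in all 10 libraries. A second, weak stretch beyond the 3′ end of Fosb, 8.46 to 9.67 kb from its 5′ end, was called in 5 libraries with a mean of 25.5 scaled tags.

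Jun, the main AP-1 partner of Fos, lies on chromosome 4 at 95049036 to 95052222, minus strand. Its region covered 4024 bp in all 10 libraries, from -2004 to 2020 bp of the start, which was 65.5% of all bases called in any library. Junb and Jund, its 2 paralogs, lie on chromosome 8 at 84976909 to 84978748 (minus strand) and at 70697739 to 70700616 (plus strand). The stretch called at Junb also overlapped the annotated span of Prdx2 in all 10 libraries, and that at Jund the span of Iqcn. The tags at Junb and Jund may thus belong in part to the neighbours. Regions at the other genes overlapped no further protein-coding span, and sharing with the extended windows of neighbours was not counted. The bases called in all libraries were 55.6% of those called in any at Junb and 64.8% at Jund.

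Atf3, a stress-induced factor of the ATF and CREB family, lies on chromosome 1 at 191170296 to 191183333, minus strand. Only 26.4% of its called bases were shared by all libraries. The ends of the promoter region varied, and 2 weaker stretches were called in some libraries. The one at 11.6 to 13.7 kb from the start, at the 3′ end, was called in 8 libraries at a mean of 55.4 scaled tags and was missing in young replicate 1 and old replicate 4. The one at 2.94 to 5.03 kb was called in 6 libraries at a mean of 23.3.

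Egr1, a zinc finger factor, lies on chromosome 18 at 34861207 to 34864956, and its called bases shared by all libraries, 26.3% of the total, fell into 3 blocks. The breaks came from young replicate 1 alone, where the main stretch of Egr1 was called as 3 regions. Ier2, a small nuclear protein of the early response, lies on chromosome 8 at 84661331 to 84662852. A stretch at -5.80 to -3.50 kb from the low-coordinate end of Ier2 was called in 9 libraries at a mean of 96.5 scaled tags and was missing in old replicate 5. Myc, a factor that drives growth and is induced later and longer than Fos, lies on chromosome 15 at 61985341 to 61990361. It had the smallest shared part of the 10 genes, 1260 bp or 19.4%, which is the whole region of old replicate 5.
Dusp1 lies on chromosome 17 at 26505591 to 26508472, minus strand, with 24.2% of the called bases shared. An upstream stretch at -6.67 to -2.80 kb from the start of Dusp1 was called in 5 libraries, 3 young and 2 old, at a mean of 63.9 scaled tags. A missing call does not show that the signal was absent.

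Per kb of called length, the genes differed in density of scaled tags, and Jun came first in all 10 libraries. Jun held 219.5 ± 34.4 scaled tags per kb (SD, n = 10 libraries), above 99.6% of the 9703 gene windows with a region in every library, whose median was 82.0. Jund followed with 188.1 ± 23.0, above Fos in 9 of 10 libraries. Next came Fos with 157.9 ± 22.0, Junb with 147.5 ± 25.8 and Ier2 with 141.2 ± 21.2. These 3 neighbours did not separate cleanly, since Fos was above Junb in 6 libraries and Junb above Ier2 in 8. Egr1 with 132.4 ± 18.8 was below Ier2 in 7 libraries and above Fosb in 8.
Fosb, Atf3 and Dusp1 lay close together at 110.6 ± 21.9, 106.1 ± 19.0 and 103.8 ± 14.9. Fosb was above Atf3 in 5 libraries and Atf3 above Dusp1 in 6, so this order lies within the spread. Myc was last with 71.5 ± 20.7 scaled tags per kb, below the median window and below Dusp1 in 9 of 10 libraries.

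The age comparison asked whether old hepatocytes carried more or less acetylation at these genes. None of the 10 genes passed the test, and 6 were positive and 4 negative in the old minus young difference. The background was 21 of 9703 windows past an adjusted p of 0.05 in limma, or 0.216%. At an unadjusted p under 0.05 only Fos passed, 1 of 10 genes beside 13.7% of all windows. The median difference of the 10 genes was 0.01 on the log2 scale beside 0.00 for all windows. These differences are on the log2(scaled tags + 1) scale after each library was centred on its median window. Before centring, the median window stood 0.34 log2 lower in old libraries (a difference of -0.34). On that scale 9 of the 10 genes were negative, with a median of -0.336 beside -0.339 for all windows. An unadjusted limma p under 0.05 was then seen at 4 of the 10 genes and at 3156 of 9703 windows. The adjusted threshold was then passed by 87 windows and by none of the 10 genes. Without young replicates 1 and 3, none of the 10 genes passed either, while the count over all windows was 111 of the 10774 then tested.

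Fos was the gene with the lowest p. The young libraries held 522.0, 670.4, 540.8, 737.1 and 448.4 scaled tags in replicates 1 to 5, a mean of 583.7 ± 117.3 (SD, n = 5). The old libraries held 595.4, 661.1, 665.3, 619.8 and 500.3, a mean of 608.4 ± 67.1 (SD, n = 5). As deposited the ages overlapped, with young replicate 4 the highest and young replicate 5 the lowest of all 10. Relative to the median window, the young libraries lay at 0.52 to 0.84 and the old ones at 1.00 to 1.29 on the log2 scale, without overlap. This was so for 1 of the 10 genes, and for 3.9% of all windows in either direction and 1.99% with old higher. The difference was 0.42 (SE 0.09, 95% interval 0.22 to 0.62), and limma's adjusted p was 0.0757. It was positive in all 23 alternatives in which Fos could be tested. With the lowest-scoring regions left out, Fos could not be tested, since its only region was then dropped in at least 1 library. The adjusted p of Fos passed the threshold in 1 of the 23, DESeq2 on unscaled tags, at 0.000845. DESeq2 called more windows in all, 298 of 9697 beside 21 of 9703 in limma. In limma the adjusted p of Fos was 0.754 without centring, where the difference was 0.08. It was 0.330 with IP efficiency as a covariate and 0.180 with the replicate number as a block. Without young replicates 1 and 3 the difference was 0.49.
Called length and density at Fos had the same sign as its tags. The tags are the product of length and density, so these are not separate results. The region averaged 3632 ± 273 bp at 5 months and 3961 ± 642 bp at 23 months (SD, n = 5 each), a centred log2 difference of 0.27 with a limma adjusted p of 0.505. Per kb the difference was 0.14 with a limma adjusted p of 0.652.

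**Figure D2:**
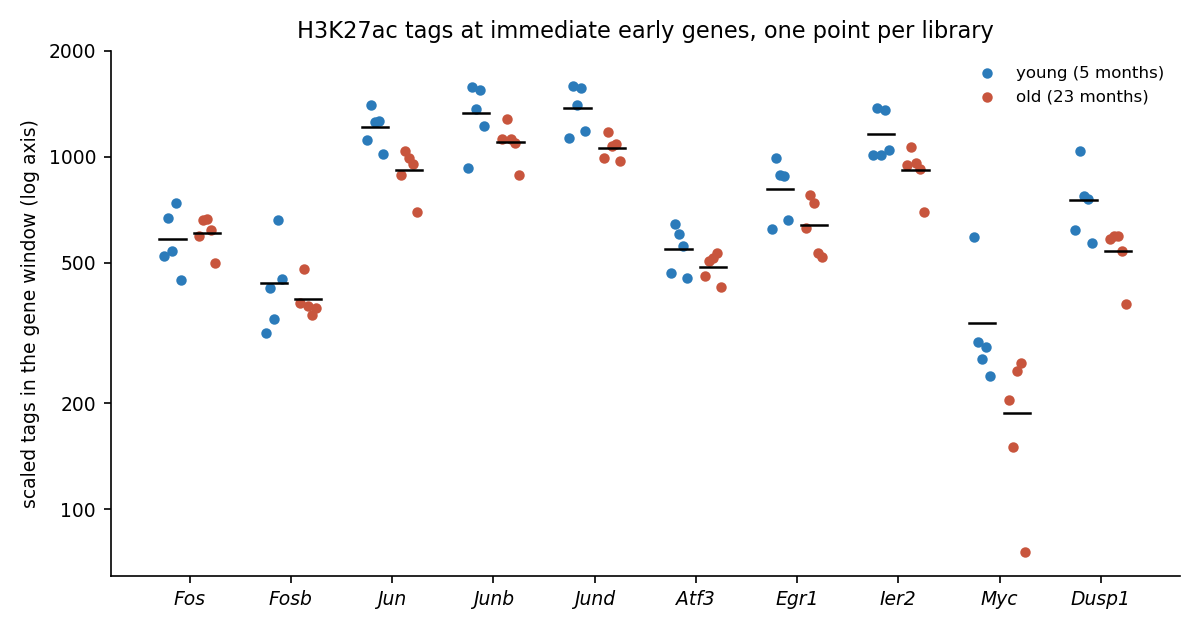
Scaled tags in each gene window, log axis, one point per library in order of replicate within each group (blue, young, 5 libraries; red, old, 5 libraries); black bars are means. Young and old points overlap at all 10 genes, and Myc spans from 75.4 in old replicate 5 to 592.8 in young replicate 1.

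At Fosb young replicate 4 was the highest of all libraries, as at Fos. Its young libraries held 315.3, 423.9, 346.7, 662.3 and 450.7 scaled tags and its old ones 384.8, 480.8, 377.3, 354.6 and 372.5. The old values all lay within the young range. The centred difference was 0.22 (SE 0.14) with a limma adjusted p of 0.509, and it was 0.13 without young replicates 1 and 3.

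The 3 Jun genes were among the strongest windows, and their centred differences were close to 0. At Jun the young libraries held 1115, 1408, 1254, 1261 and 1019 scaled tags, and the old ones 889.2, 1041, 991.6, 953.8 and 698.9. Only old replicate 2 reached into the young range, above young replicate 5, and old replicate 5 was lowest. Without centring the difference at Jun was -0.41 with a limma adjusted p of 0.0926, and with centring it was -0.07 (SE 0.10, 95% interval -0.30 to 0.16). Junb averaged 1329 ± 268 in young and 1103 ± 142 in old (SD, n = 5 each), a centred difference of 0.09 (95% interval -0.13 to 0.30). Jund averaged 1375 ± 213 and 1062 ± 81.2 (SD, n = 5 each), a centred difference of -0.02 (95% interval -0.25 to 0.21). The signs for Jun and Jund turned without young replicates 1 and 3, to 0.06 and 0.05, so no direction is given for them.

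At Atf3 the SD between libraries of one age was 0.20 on the centred log2 scale, with only Fosb (0.24) and Myc (0.63) higher. As deposited, Atf3 ran from 427.2 in old replicate 5 to 643.3 in young replicate 2, the smallest fold of the 10 genes at 1.51. It averaged 545.8 ± 83.8 in young and 487.7 ± 43.3 in old (SD, n = 5 each), and the centred difference was 0.19 (SE 0.12) with a limma adjusted p of 0.516. Without centring it was -0.15, and that of Fosb was -0.12. The Atf3 difference was 0.32 without young replicates 1 and 3 and 0.01 with IP efficiency as a covariate. With the lowest-scoring regions left out it was 0.79, and it passed in none of these. The score did not follow the tags, so that last filter can remove main stretches. In young replicate 4 the main Atf3 region held 498.8 scaled tags at a score of 8.5, and a flanking one 38.1 at 10.

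Egr1 and Ier2 gave centred differences nearest to 0. Egr1 held 622.8, 994.0, 888.1, 883.5 and 661.0 scaled tags in the young and 627.3, 781.4, 738.8, 532.3 and 520.2 in old libraries, with old replicates 4 and 5 below all young values. The centred difference was 0.01 (95% interval -0.23 to 0.24). Its mean called length was 6286 bp in young and 4859 bp in old, a centred log2 difference of -0.23 with a limma adjusted p of 0.775, while the difference per kb was 0.23 with an adjusted p of 0.610.
Ier2 held 1012, 1377, 1013, 1356 and 1049 scaled tags in the young and 949.0, 1069, 957.6, 925.7 and 695.7 in old libraries, and only old replicate 2 lay within the young range. The centred difference was 0.01 (95% interval -0.16 to 0.17). The interval for Ier2 was the narrowest of the 10 genes. With the lowest-scoring regions left out, the Ier2 difference was 0.67 with a limma adjusted p of 0.762. In young replicate 1 the main Ier2 region held 922.3 scaled tags at a score of 10, and the flanking one 89.5 at 33.5. As such a filter can remove a main stretch, the 0.67 may compare unlike stretches between libraries. Without young replicates 1 and 3, Egr1 was at 0.09 and Ier2 at 0.03.

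Myc had the largest difference and the largest error. Its young libraries held 592.8, 297.7, 267.0, 288.1 and 238.4 scaled tags and its old ones 203.4, 149.8, 246.5, 259.3 and 75.4. Young replicate 1 stood far above the other 4 young libraries, and old replicate 5 far below the other old ones. The centred difference was -0.55 (SE 0.35, 95% interval -1.31 to 0.21) with a limma adjusted p of 0.504. It was -0.26 without young replicate 1 and -0.33 without old replicate 5. Without young replicates 1 and 3, whose inputs stood apart over the 10 genes together, it was -0.18. In the Myc window itself the input of young replicate 1 was 8.72 tags per kb, within the 4.59 to 12.4 of the other libraries. The high value of young replicate 1 was also high per kb, at 120.6 scaled tags against 56.6 to 89.5 in the other young libraries, and it was 12.2 times its input against 5.30 to 11.7 times.

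Dusp1 held 617.8, 1039, 771.6, 760.0 and 570.3 scaled tags in the young and 583.4, 596.6, 595.5, 540.2 and 382.0 in old libraries. Young replicate 2 was highest, the library in which the upstream stretch was also strongest, at 131.3 scaled tags. The centred difference was -0.12 (SE 0.11) with a limma adjusted p of 0.653. It was -0.04 without young replicates 1 and 3, and per kb it was 0.10.

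Called length passed the test at none of the 10 genes. The background for length was 1 of 9703 windows in limma, or 0.0103%, with 9.78% at an unadjusted p under 0.05, where Fos was again the 1 gene of 10. Scaled tags per kb passed at none of the 10 genes either, beside 0.0928% of all windows, and at none without adjustment, beside 10.6%. In the values as deposited, the ages overlapped at all 10 genes. They did not overlap in 9.32% of all windows, 9.23% with old lower and 0.0824% with old higher.

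**Figure D3:**
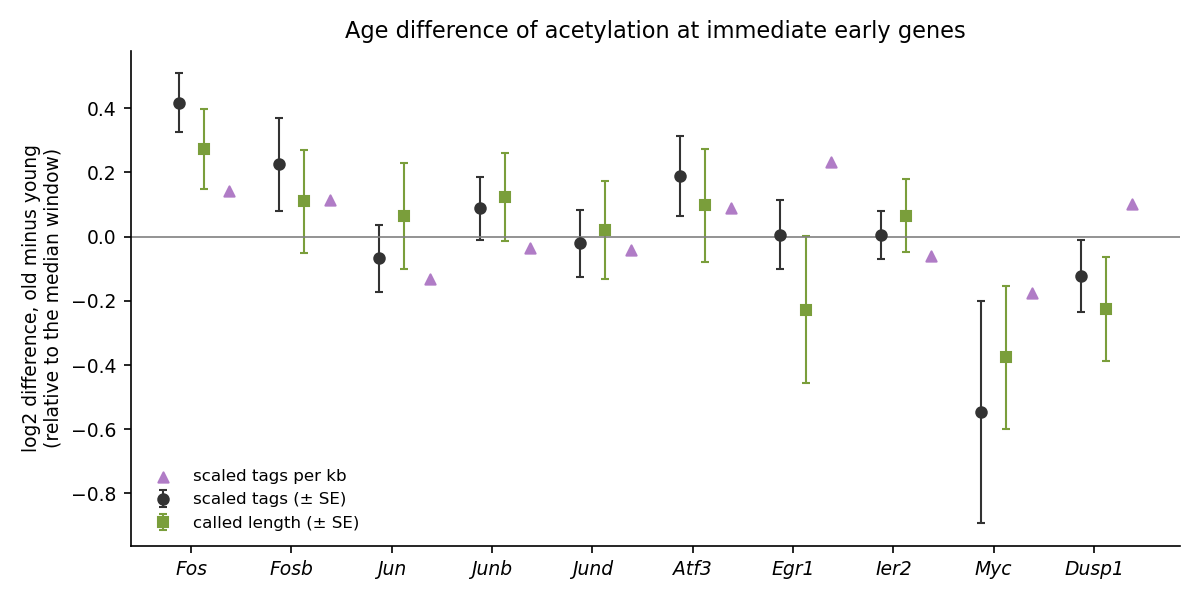
Old minus young log2 differences relative to the median window for scaled tags (circles) and called length (squares), each with its standard error from limma, and for scaled tags per kb (triangles). Fos at 0.42 lies farthest above 0 in scaled tags and Myc at -0.55 farthest below, with an SE of 0.35.

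A ratio of 2 genes inside a library does not change with a single scaling factor for that library. It can still change where libraries differ in a way that depends on signal level. The median centred difference of all windows was 0.09 in the weakest of 5 equal groups by mean level and -0.04 in the strongest. The part of such an effect in the ratios was not tested. Fos over Jun averaged 0.480 ± 0.061 at 5 months and 0.668 ± 0.030 at 23 months (SD, n = 5 each), and every old library was above every young one. The same held for Fos over Jund, 0.423 ± 0.042 against 0.573 ± 0.041, and for Fos over Ier2, 0.502 ± 0.047 against 0.666 ± 0.043. It also held for Fos over Egr1, 0.727 ± 0.104 against 0.964 ± 0.121, and for Fos over Dusp1, 0.789 ± 0.127 against 1.14 ± 0.106. Fos over Junb, Fosb, Atf3 and Myc overlapped between the ages.
These ratios were chosen after the Fos values had been seen and all share the Fos window, so they are not separate results. Of the 45 pairs among the 10 genes, 6 did not overlap, and 5 of these held Fos. The other was Jun over Atf3, 2.23 ± 0.113 in young and 1.87 ± 0.161 in old (SD, n = 5 each). Set against every other window, the ratio with Fos did not overlap between the ages in 27.7% of 9702 windows. For the other 9 genes that share was 1.80% to 4.81%. Over every 10th window of the table, 971 in all, its median was 2.28% and its 95th percentile 14.5%.

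**Figure D4:**
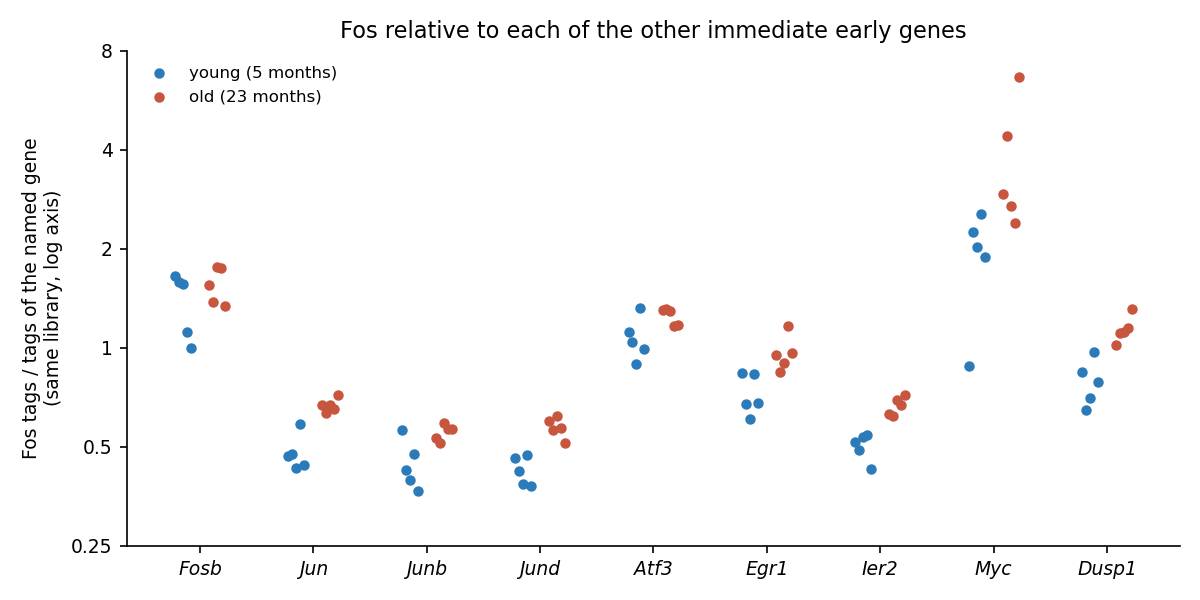
Scaled tags of Fos divided by those of each other gene in the same library, log axis, one point per library (blue, young; red, old). Every old library lies above every young one for Jun, Jund, Egr1, Ier2 and Dusp1, and the ages overlap for Fosb, Junb, Atf3 and Myc.

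Libraries of one age varied less at most of these genes than at a typical window. The within-age SD of the centred log2 values was below the median of all windows, 0.26, for 9 of the 10 genes. Over all windows, ranked by mean level in 5 equal groups, the median SD was 0.42 in the weakest group and 0.21 in the strongest, so percentiles are given within the group. Ier2 had an SD of 0.07, at percentile 0.670. Fos had 0.12 (percentile 10.9), Junb 0.14 (18.9), Jund 0.15 (26.4), Jun 0.15 (27.5), Egr1 0.17 (32.4) and Dusp1 0.18 (36.7). Atf3 with 0.20 and Fosb with 0.24 lay in the next weaker group, at percentiles 43.8 and 59.5. Myc was the exception with an SD of 0.63, at percentile 87.9 among weaker windows.
The highest library held 7.86 times the tags of the lowest at Myc, 2.72 times at Dusp1 and 1.51 to 2.10 times at the other 8 genes. Old replicate 5, the library with the lowest IP efficiency, was lowest at 8 of the 10 genes as deposited, the exceptions being Fos and Fosb. That library also had the fewest regions, 21213, and the least called length, 34.3 Mb, over the whole genome. After centring, the mean deviation of the 10 genes from their own means over all libraries ran from -0.11 in young replicate 4 to 0.17 in old replicate 4, where 9 of 10 genes lay above their own mean. Young replicate 3 followed at 0.14 with 7 of 10. Young replicate 1 was at 0.09 with Myc and at -0.06 without it. These counts of genes per library were not made over all windows, so they are not shown to be particular to the 10 genes.

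**Figure D5:**
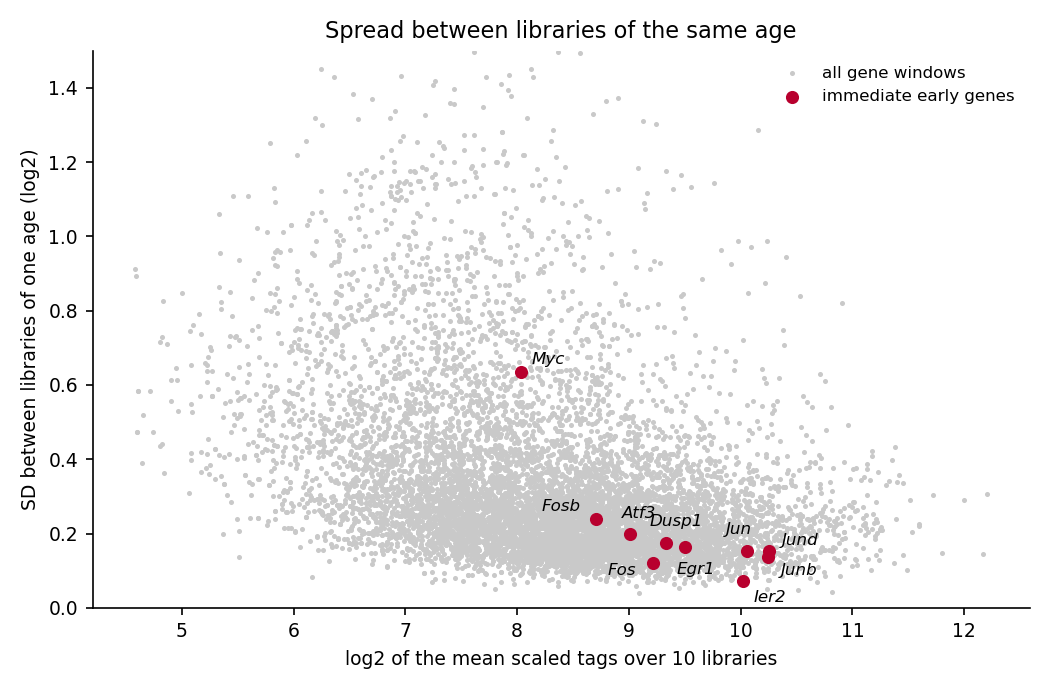
SD between libraries of one age (log2 scale) against the log2 of the mean scaled tags for all 9703 windows (grey) and the 10 genes (red). The 16 windows above an SD of 1.5 are outside the axis. Ier2 lies near the lower edge at 0.07, and Myc at 0.63 lies well above the other 9 genes.

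The windows most like Fos over the 10 libraries, by the root mean square difference of their centred log2 profiles, were Lrrc27 (0.09), Pwwp2b (0.10) and Arsa (0.10), beside a median of 0.35 over 9702 windows. Among the early genes, Atf3 was nearest to Fos at rank 197, with Junb at 890, Ier2 at 925, Jund at 1275 and Fosb at 1736. Egr1 was at rank 1894, Jun at 1992, Dusp1 at 3669 and Myc at 8937.

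The genes around these 10 in the pathway were read in 3 lists, none of whose members passed the test. Of 72 other early response genes, 56 had a region in all libraries, 11 in some and 5 in none (Egr4, Ccn2, Ptgs2, Il6 and Ccl2). None of the 56 passed in either direction, beside 0.216% of all windows. An unadjusted limma p under 0.05 was seen at 7 of the 56, beside 13.7% of all windows. Of the 56, 28 were positive and 28 negative, with a median of 0.01. The largest differences belonged to Id1, an inhibitor of helix-loop-helix factors, at 1.08 (limma adjusted p 0.396) and to Socs3, which dampens cytokine signalling, at 0.52 (0.504). Dusp8 and Ier5 were at 0.50 each and Ccn1 at 0.48, with limma adjusted p of 0.526, 0.529 and 0.310. Gadd45b was at -0.51 with a limma adjusted p of 0.543.
Cebpd, a C/EBP factor of the acute phase response, averaged 611.4 ± 86.7 scaled tags over the young libraries and 338.2 ± 33.3 over the old (SD, n = 5 each), without overlap. Its centred difference was -0.50 with a limma adjusted p of 0.0693. Errfi1, an inhibitor of the EGF receptor, was also lower without overlap, 1840 ± 383 against 1052 ± 211, at -0.46 with a limma adjusted p of 0.151. As deposited, 9 of the 56 early response windows did not overlap between the ages, beside 9.32% of all windows.

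Of 24 genes that act upstream, 18 were tested and none passed, with 10 positive and 8 negative and a median of 0.01. An unadjusted limma p under 0.05 was seen at 2 of the 18, beside 13.7% of all windows. Rps6ka1, a kinase below ERK, was at 0.74 (limma adjusted p 0.157) and Srf, the factor of the CArG box, at 0.45 (0.325). Mapk9 was at 0.43 and Mrtfb, a partner of SRF, at -0.22, with limma adjusted p of 0.484 and 0.490.
Of 19 partners of the AP-1 and Myc factors, 12 were tested and none passed, with 7 positive and 5 negative and a median of 0.04. An unadjusted limma p under 0.05 was seen at 2 of the 12, beside 13.7% of all windows. Max, the partner that Myc needs to bind DNA, was at -0.31 (limma adjusted p 0.249) and its other partner Mnt at 0.26 (0.271). Fosl2, a further Fos relative, was at 0.20 and Mga at -0.19, with limma adjusted p of 0.608 and 0.407.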

How the data were processed

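H3K27ac was measured by ChIP-seq in 10 hepatocyte libraries, 5 per age. The authors called regions library by library over the matching input with HOMER (version and aligner not given in the sources used here), per the file headers, from 500 bp peaks, at 4-fold over input with a Poisson p of 1e-04 and 4-fold over the surrounding 10000 bp. Build mm10 is named in the submitters' processing notes. The deposited columns used were the scaled tags (a signal per 10000000 tags), start and end, the unscaled ChIP tags and input tags (expected counts, not always whole), the region score and the fold over input, a ratio computed by the authors.

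Regions were summed per gene window (RefSeq span extended by 5 kb, 21887 protein-coding genes). Neighbouring windows can share a region. Windows with a region in all 10 libraries were tested (9703) with limma 3.58.1 (R 4.3.3, trend on the mean) on log2(scaled tags + 1) or log2 length, centred on the median window, two-sided, with Benjamini-Hochberg adjustment over all windows. Alternatives included edgeR 4.0.16 and DESeq2 1.42.0 on rounded unscaled tags. On simulated data of the 9703 windows, with 200 changed at a time, the test recovered 32% at 1.5-fold, 73.5% at 2-fold and 95.5% at 4-fold, and called 4, 17 and 11 unchanged windows.

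The 10 genes and the gene lists were chosen with earlier results of these data known. Named beyond the 10 genes were, from 3 lists, the windows past the threshold and up to 8, 4 and 4 with the largest differences, the 3 windows most like Fos, and neighbours sharing a region. The cell type markers came from fixed lists, and the genes named in the other observations were chosen after their values were seen.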

Additional observations from a re-analysis of the deposited data

Results flagged for a closer look

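Over scaled tags, called length and scaled tags per kb of the 10 genes, 60 groups of 5 libraries were checked for a library far from the others, by the gap to its nearest neighbour as a share of the group's range (above 0.71). Chance gives about 1 in 20 groups, and 7 groups were found. In scaled tags, Myc in young replicate 1 was at 592.8 with the next library at 297.7, Fosb in old replicate 2 was at 480.8 with the next at 384.8, and Dusp1 in old replicate 5 was at 382.0 with the next at 540.2. In called length, Myc in old replicate 5 was at 1260 bp with the next at 3177 bp. In scaled tags per kb, Egr1 in young replicate 4 was at 162.3 with the next at 128.9, Ier2 in old replicate 4 was at 114.9 with the next at 128.7, and Dusp1 in young replicate 3 was at 138.7 with the next at 101.7.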

How the results depend on the processing

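None of the 10 genes passed the threshold in scaled tags under any alternative except DESeq2 on unscaled tags, where 1 (Fos) did, and none passed in called length. With the upper 4 of 5 equal groups of regions by score, only 4 of the genes could be tested: Ier2 was at 0.67, Atf3 0.79, Fosb 0.17 and Jund -0.06. The score did not rank regions by tags, so this filter also removed main stretches. The only Jun region of young replicate 1 scored 10 with 1114.8 scaled tags. A flanking Atf3 region in young replicate 2 scored 25.5 with 47.8. The number of all windows past the threshold in scaled tags (21 of 9703, 57.1% of them higher) moved more. It was 87 without centring (2.3% higher), 9 per kb (88.9% higher), 32 with regions clipped to the window and 47 with edgeR. Some alternatives also changed the number of windows tested. The count was 5 of 12439 with windows called in at least 5 libraries and 42 of 11881 with a 20 kb extension. With DESeq2 it was 298 of 9697. It was 0 of 5527 with the lowest-scoring regions left out (448 at an unadjusted p under 0.05). It was also 0 with IP efficiency as a covariate (1204). Chosen after seeing the data were cyclic loess scaling (56) and leaving out young replicates 1 and 3 together (111 of 10774). Leaving out 1 library gave from 2 of 9739, when old replicate 4 was dropped, up to 61 of 10129, when young replicate 1 was. For called length (1 window) the count was 0 without centring, 0 with at least 5 libraries and 0 with no extension. It was 0 with the lowest-scoring regions left out, and 0 to 7 when 1 library was left out. With the replicate number as a block the counts were 4 for scaled tags and 6 for called length. The numbers were not taken as pairs: the deviations of same-numbered libraries correlated at -0.06 to 0.18, over 0.1 in 2 of 5 pairs, and 3 of 10 libraries correlated best with their own number.

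Signs turned where differences were small. In scaled tags, without centring, Fosb was at -0.12, Junb -0.25, Atf3 -0.15, Egr1 -0.34 and Ier2 -0.34. Per kb, Junb was at -0.034, Ier2 -0.060 and Dusp1 0.10. Ier2 was at -0.00097 with a pseudocount of 10, -0.0020 with clipped regions, -0.050 with the 20 kb extension and -0.023 with IP efficiency as a covariate. Egr1 was at -0.023 with the 20 kb extension, -0.0042 with edgeR and -0.021 with that covariate. Jund was at 0.0036 with no extension, 0.029 with cyclic loess and 0.053 without young replicates 1 and 3, where Jun was at 0.063. Leaving out 1 library gave -0.027 to 0.089 for Egr1, -0.026 to 0.025 for Ier2 and -0.071 to 0.034 for Jund. In called length, without centring, Fosb was at -0.051, Jun -0.096, Junb -0.038, Jund -0.14, Atf3 -0.063 and Ier2 -0.096, and leaving out 1 library gave -0.013 to 0.22 for Atf3, -0.019 to 0.16 for Jun and -0.048 to 0.10 for Jund. The cause of these changes was not tested.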

Other observations

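Myc was not the only window in which young replicate 1 stood above the rest. In 23 of 9703 windows, Myc included, the centred log2 value of that library exceeded the highest of the other 4 young libraries by at least the 1.23 seen at Myc. The 6 with the largest excess, named after their values were seen, were Mapkapk3, a kinase below the MAP kinases (2.25), Chrm3, a muscarinic acetylcholine receptor (2.07), Tmc1 (1.61), Clp1 (1.598), Mug1 (1.59) and Dlgap1 (1.58). Mapkapk3 held 568.5 scaled tags in young replicate 1 against 78.2 to 129.6 in the other young libraries. Of the other early response genes, Phlda1 had the largest excess (1.18), with 943.3 scaled tags against 275.9 to 584.8, followed by Nfil3 (0.80) and Gadd45b (0.77). On the centred scale, young replicate 1 was the highest young library in 33 of the 56 tested early response windows, in 3 of the 10 genes described here (Fos, Ier2 and Myc) and in 37.3% of all windows. In scaled tags as deposited it was the highest young library of these 3 genes only at Myc.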
